A study of Mus musculus with 8 samples.

Results

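The immunity-related GTPases are a family of interferon-inducible proteins that mouse cells use against bacteria and parasites living inside membrane vacuoles. The 7 members described here are Irgm1, Irgm2, Igtp, Iigp1, Ifi47, Tgtp1 and Tgtp2, chosen by gene name from the 54532 genes of an RNA sequencing table of mouse bone marrow derived macrophages. Macrophages are phagocytic immune cells, and these were grown from marrow. The 4 groups, with 2 libraries each, were cells given spermine at 3 h of IFN-β, PBS at 3 h of IFN-β, spermine at 0 h and PBS at 0 h. Spermine is a positively charged polyamine that cells also make, PBS is a salt buffer, and IFN-β is a type I interferon. The sample labels, followed here, give PBS and macrophages, whereas the series text gives DMSO as the vehicle and the extraction protocol gives blood. The doses and length of spermine treatment and the strain, age, genotype and number of the mice are not stated in the labels. The labels do not say whether the 2 libraries of a group came from separate animals or cultures, so p-values measure only the spread between these libraries, which may be technical.

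IRG proteins fall into 2 classes by the first glycine-rich loop of their nucleotide pocket. The GMS class (glycine, methionine, serine), here Irgm1, Irgm2 and Igtp, sits on the cell's own membranes and holds the other class in its inactive state. The GKS class (glycine, lysine, serine), here Iigp1, Ifi47, Tgtp1 and Tgtp2, loads onto the vacuole around a parasite such as Toxoplasma and breaks it open. Type I interferon acts mainly through a DNA element called ISRE and interferon-γ mainly through one called GAS, and IRG genes are known to answer both.

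The genes lie in groups on the chromosomes. In the deposited table (GRCm38), Tgtp1, Tgtp2 and Ifi47 lie near Irgm1 on chromosome 11, while Igtp and Irgm2 overlap each other elsewhere on chromosome 11. Promoter sequences from RefSeq (GRCm38.p6), covering 250 bases before to 50 bases after each start, were matched by symbol for 6 of the 7 members, Iigp1 being named only. Both strands were searched for the ISRE core GAAANNGAAA and for the GAS motif TTCNNNGAA. An ISRE core was found in 5 of the 6 promoters and a GAS motif in 4 of these 5. Of 32851 RefSeq mouse promoters of the same length, 3.44% hold the ISRE core, 8.30% the GAS motif and 0.454% both. The 40 bases around each ISRE core are printed so that these windows can be compared. They run 5′ to 3′ on the gene's strand, with bases that match either motif in capitals.
Irgm1: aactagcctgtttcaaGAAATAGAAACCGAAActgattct
Irgm2: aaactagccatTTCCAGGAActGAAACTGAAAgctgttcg
Igtp: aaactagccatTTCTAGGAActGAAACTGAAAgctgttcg
Tgtp1: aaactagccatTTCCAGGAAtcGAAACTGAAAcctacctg
Tgtp2: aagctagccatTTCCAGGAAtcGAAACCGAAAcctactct

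These windows lie at chr11:48871427-48871466 (minus strand) for Irgm1, chr11:58214891-58214930 (plus strand) for Irgm2 and chr11:58199500-58199539 (plus strand) for Igtp. Those of Tgtp1 and Tgtp2 lie at chr11:48992306-48992345 and chr11:49064265-49064304, both on the minus strand. The ISRE core began 24 bases before the RefSeq start of Irgm1, 64 before Irgm2, 34 before Igtp, 77 before Tgtp1 and 70 before Tgtp2. The windows of Irgm1, Irgm2 and Tgtp1 fall within the longer gene bodies of the deposited table, which begin further upstream. In Irgm2, Igtp, Tgtp1 and Tgtp2 a GAS motif stood 2 bases before the ISRE core. The windows of Igtp and Irgm2 were identical at 39 of 40 bases and those of Tgtp1 and Tgtp2 at 35 of 40. The window of Irgm1 matched each of the others at 23 to 27 of 40 bases. All windows were aligned at the ISRE core, so its fixed bases match by design. The window of Irgm1 held 2 overlapping ISRE matches and no GAS match. The Ifi47 entry held neither motif, which says only that these letters are not in its window.

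Each library held 15723437 to 17744844 reads, as rebuilt from FPKM. FPKM counts fragments per length of gene and per size of library, so levels can be set beside each other between genes. The library size behind the deposited values was not the summed reads alone. The FPKM added by 1 read, times gene length, was 43.7 in PBS 0 h replicate 1, which held 17744844 reads. In spermine 3 h replicate 1, which held 16574010 reads, it was 71.4. Changes between groups are therefore relative to this scaling. The 11421 genes that reached 1 FPKM in 2 or more libraries were tested, including all 7 members. Changes are log2 changes of FPKM + 1 with their standard error, tested with limma, and "rose" and "fell" are used for an adjusted p under 0.05. Macrophage markers were expressed at 8 of 8, with Lyz2 highest in every group, and the 5 erythroid, 5 fibroblast and 5 B cell markers were each below 1 FPKM. In bulk RNA, fewer cells of a type and less RNA per cell cannot be told apart. There are no cells at 3 h without IFN-β, so an effect of time in culture cannot be told apart from that of IFN-β.

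All 7 members rose with IFN-β, both with spermine and with PBS, and in each treatment every library at 3 h lay above every library at 0 h. Iigp1, Tgtp1 and Tgtp2 were below 1 FPKM in every 0 h library, so they passed the filter through the 3 h libraries alone. With spermine the members' median log2 change was 7.12, against -0.01 over all tested genes, of which 19.7% rose and 34.6% had groups that did not overlap, in that direction. In PBS the median was 6.55, against -0.02 over all tested genes, of which 24.6% rose and 35.7% had groups that did not overlap, in that direction. The 7 members took up 0.696% and 0.724% of all reads in the spermine 3 h libraries, 0.854% and 0.750% in the PBS 3 h libraries, 0.00395% and 0.00415% in the spermine 0 h libraries and 0.0117% and 0.00984% in the PBS 0 h libraries.

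**Figure D1:**
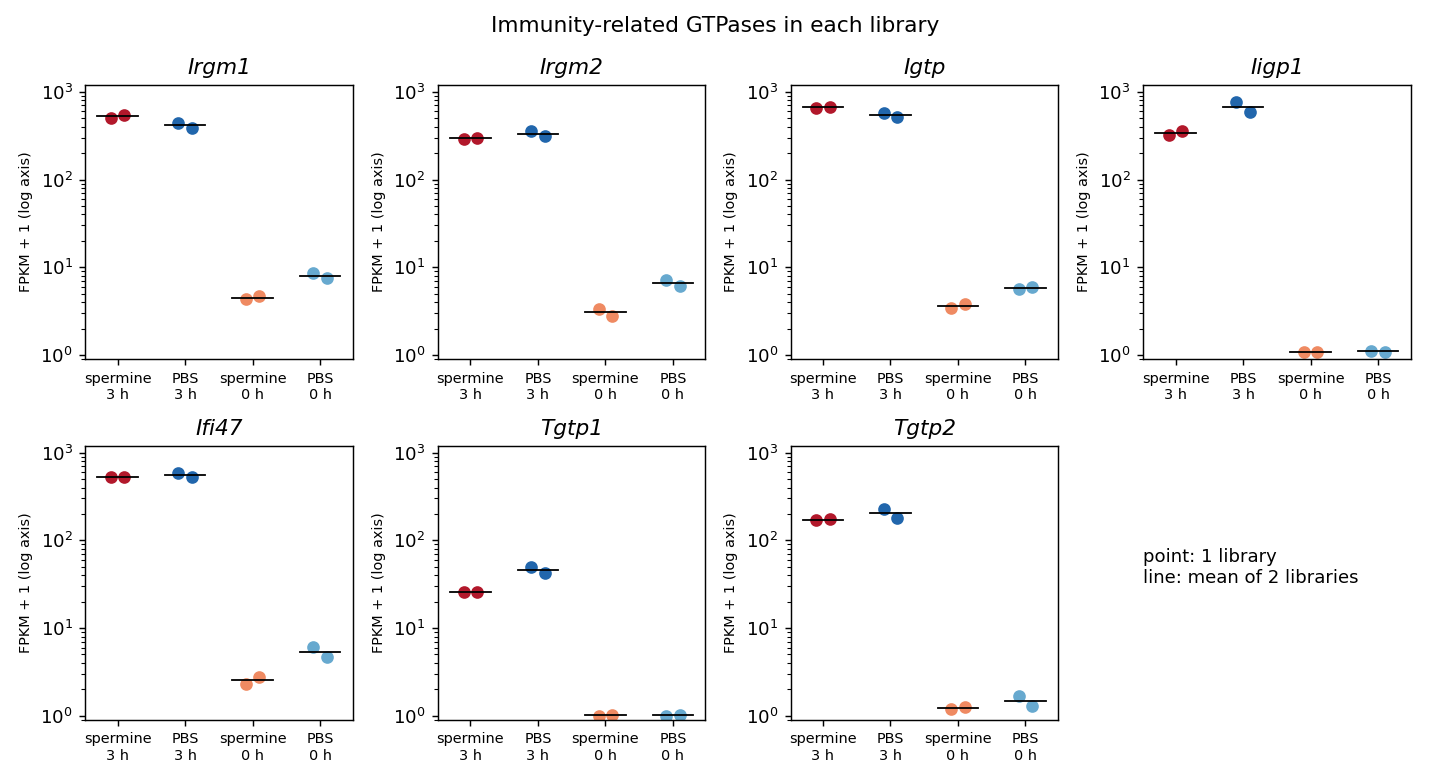
Level of each member in each library, as FPKM + 1 on a log axis, with groups from left to right as spermine 3 h, PBS 3 h, spermine 0 h and PBS 0 h; points are libraries and lines are means of 2 libraries. Iigp1 lies at 325 and 353 FPKM in spermine 3 h libraries and at 756 and 589 FPKM in PBS 3 h libraries, while Irgm1 is the higher in spermine at 3 h and the lower in spermine at 0 h.

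Irgm1, a GMS regulator needed for mouse resistance to mycobacteria, had 509 and 545 FPKM in spermine 3 h libraries, 445 and 382 FPKM in PBS 3 h libraries, 3.39 and 3.66 FPKM in spermine 0 h libraries and 7.54 and 6.48 FPKM in PBS 0 h libraries. Spermine libraries were thus the lower pair at 0 h and the higher pair at 3 h, with no overlap between groups. Irgm1 rose with IFN-β by 6.87 ± 0.10 with spermine (adjusted p = 4e-08) and by 5.69 ± 0.10 in PBS (adjusted p = 4.93e-08).

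Irgm2, a GMS regulator found mainly at the Golgi, had 292 and 299.9 FPKM in spermine 3 h libraries, 354 and 313 FPKM in PBS 3 h libraries, 2.37 and 1.82 FPKM in spermine 0 h libraries and 6.15 and 5.11 FPKM in PBS 0 h libraries. The spermine libraries were the lower pair at both times without overlap. Irgm2 rose with IFN-β by 6.59 ± 0.12 with spermine and by 5.66 ± 0.12 in PBS. Igtp, also called Irgm3, is a GMS regulator of the endoplasmic reticulum and of lipid droplets. It had 653 and 673 FPKM in spermine 3 h libraries, 579.7 and 521 FPKM in PBS 3 h libraries, 2.48 and 2.77 FPKM in spermine 0 h libraries and 4.73 and 5.01 FPKM in PBS 0 h libraries. Like Irgm1, it was lower with spermine at 0 h and higher with spermine at 3 h, without overlap. Its rise with IFN-β was 7.52 ± 0.08 with spermine and 6.55 ± 0.08 in PBS.

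The first of the GKS effectors is Iigp1 (Irga6), which coats the Toxoplasma vacuole and lies apart from the other members on chromosome 18. It had 325 and 353 FPKM in spermine 3 h libraries, 756 and 589 FPKM in PBS 3 h libraries, 0.0774 and 0.0881 FPKM in spermine 0 h libraries and 0.112 and 0.0954 FPKM in PBS 0 h libraries. Those 0 h levels rest on 4 and 5 reads with spermine and on 8 and 6 reads with PBS. At 3 h the spermine libraries lay below the PBS libraries without overlap. Iigp1 rose with IFN-β by 8.29 ± 0.12 with spermine and by 9.24 ± 0.12 in PBS, and with a pseudocount of 0.1 in place of 1 these values were 10.86 and 11.68.

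Ifi47 (Irgd), another GKS protein, had 522 and 525 FPKM in spermine 3 h libraries, 585 and 529.7 FPKM in PBS 3 h libraries, 1.29 and 1.78 FPKM in spermine 0 h libraries and 5.01 and 3.65 FPKM in PBS 0 h libraries. The spermine libraries were lower at both times without overlap, by a small gap at 3 h. Ifi47 rose with IFN-β by 7.70 ± 0.14 with spermine and by 6.72 ± 0.14 in PBS. Its exons share 111 bases with Olfr56 on the same strand and 106 bases with Gm12188 on the opposite strand, and the strand of the counting is not stated, so reads there cannot be assigned with certainty. The same limit holds for the 162 exonic bases that Igtp and Irgm2 share on the same strand and the 223 that Tgtp1 shares with Gm12185 on the same strand.

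Tgtp1 and Tgtp2 encode near-identical GKS proteins, both also called Irgb6, first described in T cells. Of the 31-base words in Tgtp2 transcripts, 89.2% also occur in Tgtp1 transcripts, and 83.2% of those of Tgtp1 occur in Tgtp2. The labels do not say how reads that match both were counted, so their separate values are uncertain. Tgtp2 had 168 and 173 FPKM in spermine 3 h libraries, 224 and 180.0 FPKM in PBS 3 h libraries, 0.206 and 0.262 FPKM in spermine 0 h libraries and 0.669 and 0.304 FPKM in PBS 0 h libraries. Tgtp1 had 24.7 and 24.8 FPKM in spermine 3 h libraries, 48.4 and 41.8 FPKM in PBS 3 h libraries, and 0 and 1 read in the 2 libraries of either 0 h group. Both were lower in the spermine 3 h libraries without overlap. Tgtp2 rose with IFN-β by 7.12 ± 0.14 with spermine and by 7.10 ± 0.14 in PBS. Tgtp1 rose by 4.68 ± 0.09 with spermine and by 5.51 ± 0.09 in PBS, which became 7.84 and 8.71 with a pseudocount of 0.1. Summed over both genes, the rise was 7.27 ± 0.13 with spermine and 7.36 ± 0.13 in PBS.

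The order of the levels differed between the treatments at 3 h. In spermine 3 h libraries Igtp was highest at a mean of 663 FPKM, followed by Irgm1 and Ifi47, whose libraries overlapped, then Iigp1, Irgm2, Tgtp2 and Tgtp1. In PBS 3 h libraries Iigp1 was highest at 673 FPKM, followed by Ifi47 and Igtp, whose libraries overlapped, then Irgm1, Irgm2, Tgtp2 and Tgtp1. The deposited length of Iigp1 is 3121 bases, against 5823 exonic bases in the GENCODE annotation used for exon overlaps. Over the longer length its FPKM would be lower. The rank of Iigp1 and the size of its ratios to other members therefore depend on that length, while its comparisons between groups do not. At 0 h Irgm1 was the highest and Tgtp1 the lowest member in both treatments, and in PBS the libraries of Igtp and Ifi47 overlapped. The profiles of Ifi47 and Igtp were the closest pair among the members, with a root mean square difference of 0.234 on the log2 scale over the 8 libraries, each gene centred on its own mean. Irgm1 and Irgm2 followed at 0.240, and Iigp1 and Tgtp1 were the farthest apart at 1.84.

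Before IFN-β, spermine lowered 4 of the 7 members, and 19.2% of all tested genes fell in that comparison. In 6 members the spermine 0 h libraries lay below the PBS 0 h libraries without overlap, as in 34.5% of all tested genes, and in Tgtp1 the groups overlapped. Irgm2 fell by 1.10 ± 0.12 (adjusted p = 0.000561), Ifi47 by 1.07 ± 0.14 (adjusted p = 0.00134), Irgm1 by 0.82 ± 0.10 (adjusted p = 0.00101) and Igtp by 0.70 ± 0.08 (adjusted p = 0.000668), all on the log2 scale. These 4 were the members above 1 FPKM at 0 h, and in them the ratio of mean FPKM, spermine over PBS, was 0.372 for Irgm2, 0.355 for Ifi47, 0.503 for Irgm1 and 0.539 for Igtp. The other 3 members were near or below 0.5 FPKM and did not pass: Tgtp2 changed by -0.26 (interval -0.60 to 0.08), Iigp1 by -0.03 (-0.31 to 0.25) and Tgtp1 by 0.00 (-0.21 to 0.21), with 95% intervals. On a scale with a pseudocount of 1, the changes of genes this low are understated. The members' median was -0.70, against 0.01 over all tested genes.

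At 3 h of IFN-β the members split: without overlap, spermine libraries lay below PBS libraries in 5 members and above them in 2. Of all tested genes, 36.3% lay below and 35% above in this way. Iigp1 fell by 0.98 ± 0.12 with spermine (adjusted p = 0.000927) and Tgtp1 by 0.84 ± 0.09 (adjusted p = 0.000501), where 20.6% of all tested genes fell. Irgm1 rose by 0.35 ± 0.10 (adjusted p = 0.0312) and Igtp by 0.27 ± 0.08 (adjusted p = 0.0315), where 19.9% of all tested genes rose. The counts of 2 in each direction are thus close to the background share, and the median of the 7 members was -0.17 against 0.00 over all tested genes. Irgm2 (-0.17, interval -0.45 to 0.11), Tgtp2 (-0.23, -0.57 to 0.10) and Ifi47 (-0.09, -0.43 to 0.25) did not pass the threshold.

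The falls of Iigp1 and Tgtp1 at 3 h passed under every alternative run in which they were fitted as genes of their own, and the rises of Irgm1 and Igtp did not. Rescaled to TPM, the change of Irgm1 was 0.14 (adjusted p = 0.3) and that of Igtp 0.06 (adjusted p = 0.528), while Irgm2 changed by -0.38 and passed (adjusted p = 0.0468). Both rises also lost the call without PBS 3 h replicate 2 (Irgm1 0.24 and Igtp 0.19), without spermine 3 h replicate 1 (0.40 and 0.29) and without spermine 3 h replicate 2 (0.30 and 0.25). That of Igtp was lost too without PBS 0 h replicate 1 or without PBS 0 h replicate 2 (0.27 each). Summed with Tgtp2, Tgtp1 did not pass (-0.34 ± 0.13, adjusted p = 0.0859), and Tgtp1 took 13.8% and 13.6% of the reads of the pair in spermine 3 h libraries, against 19.1% and 20.2% in PBS 3 h libraries.

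**Figure D2:**
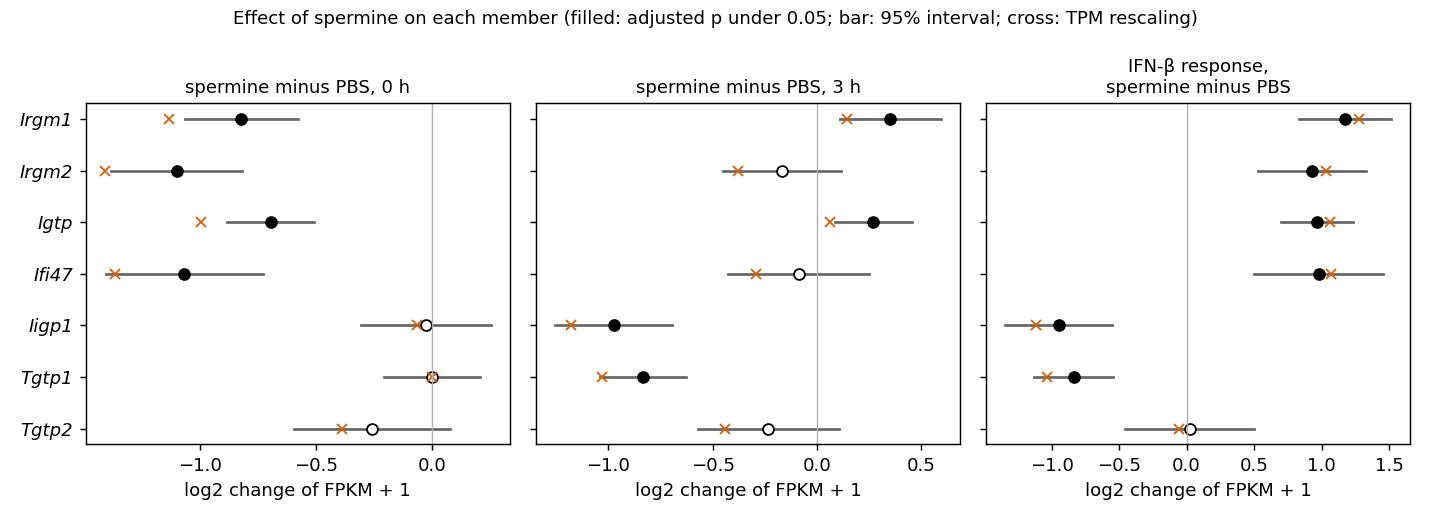
Log2 change of FPKM + 1 for each member: spermine minus PBS at 0 h on the left, at 3 h in the middle, and the IFN-β response with spermine minus that in PBS on the right. Points are filled at an adjusted p under 0.05, bars are 95% intervals and crosses show the change after TPM rescaling; Irgm1, Irgm2, Igtp and Ifi47 lie below 0 on the left and above 0 on the right, while Iigp1 (-0.98) and Tgtp1 (-0.84) lie below 0 in the middle.

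Ratios between members in one library do not change when all values of that library are multiplied by the same factor. Per library, Iigp1 stood at 0.639 and 0.649 of Irgm1 in spermine 3 h libraries, against 1.70 and 1.54 in PBS 3 h libraries. Irgm2 stood at 0.573 and 0.551 of Irgm1 with spermine, against 0.795 and 0.820 with PBS. For Igtp over Irgm1 the ratios were 1.28 and 1.24 with spermine and 1.30 and 1.36 with PBS. Igtp over Irgm1 was thus the nearest to equal between treatments among these ratios, and Iigp1 over Irgm1 the farthest.

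By class, the 3 GMS genes summed to 1453 and 1518 FPKM in spermine 3 h libraries, against 1379 and 1216 FPKM in PBS 3 h libraries. The 4 GKS genes summed to 1041 and 1076 FPKM with spermine at 3 h, against 1614 and 1340.3 FPKM with PBS at 3 h. The GKS sum over the GMS sum was 0.716 and 0.709 in spermine 3 h libraries and 1.17 and 1.10 in PBS 3 h libraries. Other IRG genes are in neither sum. Among them, Gm12250 (Irgb10) had 557 and 590.3 FPKM in spermine 3 h libraries and 692 and 607 FPKM in PBS 3 h libraries. If it were added to the GKS genes, their sum would be above the GMS sum in both treatments. Which sum is the larger therefore holds for these members only, not for the whole classes. Among these members, the GKS sum was below the GMS sum with spermine and above it with PBS at 3 h. This rests on Iigp1 and on its deposited length of 3121 bases. Over its 5823 exonic bases in the GENCODE annotation, the GKS sum would lie below the GMS sum in both treatments at 3 h. Without Iigp1 the GKS sum was 716 and 722 FPKM in spermine 3 h libraries and 857 and 751 FPKM in PBS 3 h libraries, below the GMS sum in both treatments, and its ratio to the GMS sum was 0.492 and 0.476 with spermine and 0.622 and 0.618 with PBS. At 0 h the ratio with all members was 0.191 and 0.260 with spermine and 0.315 and 0.245 with PBS, and the groups overlapped. The ratios are given as values only; an exact permutation test of 2 libraries against 2 cannot go below p = 0.333.

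**Figure D3:**
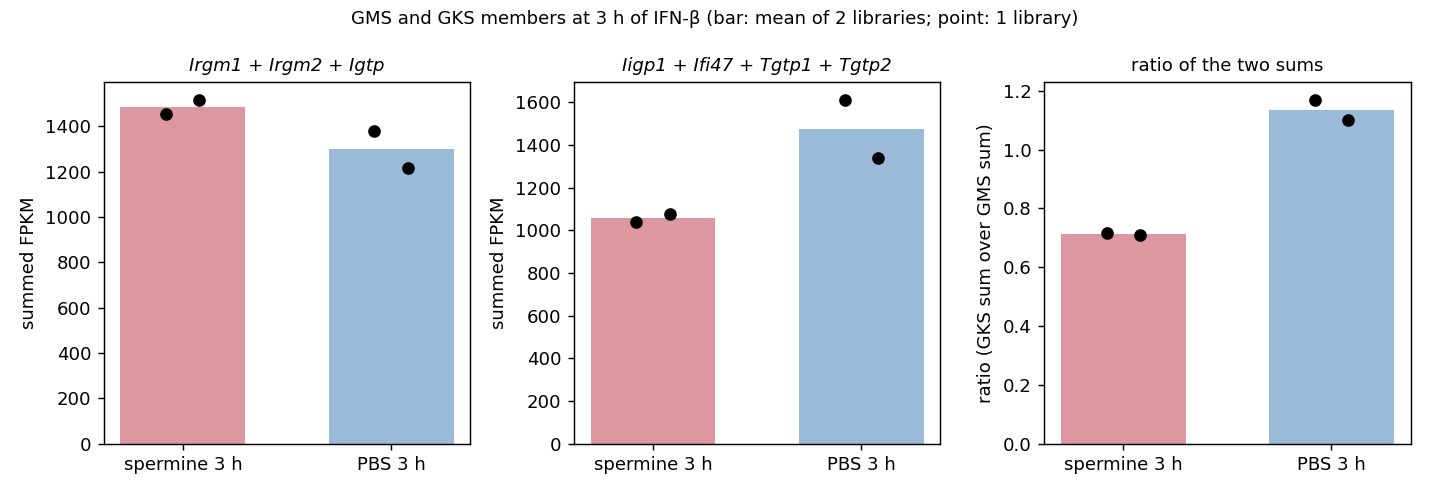
Summed FPKM of the GMS members (left) and of the GKS members (middle) and the GKS sum over the GMS sum (right) at 3 h of IFN-β; bars are means of 2 libraries, points are libraries, and spermine stands left of PBS. The ratio is 0.716 and 0.709 with spermine and 1.17 and 1.10 with PBS. The GKS sum and the ratio depend on the deposited length of Iigp1, and over its longer exonic length the ratio would be below 1 in both treatments.

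Whether the IFN-β response itself differed was tested as the response with spermine minus the response with PBS, in which 13.6% of all tested genes passed, 5.82% higher and 7.75% lower. This comparison shares its libraries with the other comparisons. The response was larger with spermine for 4 members: Irgm1 by 1.17 ± 0.14 (adjusted p = 0.00479), Ifi47 by 0.98 ± 0.20 (adjusted p = 0.0235), Igtp by 0.97 ± 0.11 (adjusted p = 0.00388) and Irgm2 by 0.93 ± 0.17 (adjusted p = 0.0161). These are the same 4 that were lower with spermine at 0 h, and at 3 h their changes lay between -0.17 and 0.35. For Iigp1 (-0.95 ± 0.17, adjusted p = 0.0151) and Tgtp1 (-0.84 ± 0.12, adjusted p = 0.00829) the response was smaller with spermine. Tgtp2 had a difference of 0.02 ± 0.20 (adjusted p = 0.951, interval -0.45 to 0.50), and its sign turned with the scaling. The members' median was 0.93, against -0.02 over all tested genes.

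For Irgm1 and Igtp this difference passed under every alternative run. That of Irgm2 was lost without PBS 0 h replicate 1 (0.82), without spermine 3 h replicate 1 (0.95) and without spermine 3 h replicate 2 (0.91). That of Ifi47 was lost without filtering, under quantile normalization (0.63) and without PBS 0 h replicate 1 (0.79), PBS 3 h replicate 1 (1.05), PBS 3 h replicate 2 (0.91), spermine 0 h replicate 1 (0.84), spermine 3 h replicate 1 (0.98) or spermine 3 h replicate 2 (0.98). That of Iigp1 was lost without PBS 0 h replicate 1 (-0.96), PBS 0 h replicate 2 (-0.94) or spermine 3 h replicate 1 (-0.89). For Iigp1 and Tgtp1, whose 0 h libraries held 0 to 8 reads, the size of the response depends on the pseudocount, and with limma voom on rebuilt reads neither passed (-0.70 and -1.21). With a pseudocount of 0.1 the difference of Tgtp1 was -0.87 and did not pass (adjusted p = 0.0533). Summed with Tgtp2 it was -0.09 ± 0.19 (adjusted p = 0.79).

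Relatives of the members were examined through a list of 12 other IRG genes, of which 11 are in the table and 9 were tested. With IFN-β in PBS 8 of the 9 rose, where 24.6% of all tested genes rose. They were led by Gm12250 (7.59), which RefSeq also names Irgb10, Gm4951 (6.69) and Gm5431 (5.01). Gm4951, Gm4841, F830016B08Rik and Gm12185 were below 1 FPKM in every 0 h library. These genes passed the filter through the 3 h libraries alone, which set the direction of this change. Irgq, which lacks a working GTPase pocket, was the single gene that fell (-0.96, named after its value was seen), in a comparison where 25% of all tested genes fell. With spermine at 0 h 4 of the 9 fell, where 19.2% of all tested genes fell, led by Gm5431 (-1.83), 9930111J21Rik2 (-1.39) and 9930111J21Rik1 (-1.11). At 3 h 7 of the 9 fell with spermine, with a median of -0.80 against 0.00 over all genes, of which 20.6% fell. The largest of these falls were in F830016B08Rik (-1.49), 9930111J21Rik2 (-1.28) and 9930111J21Rik1 (-0.93). F830016B08Rik had 10.3 and 12.0 FPKM in spermine 3 h libraries, against 37.2 and 29.3 FPKM in PBS 3 h libraries, without overlap. Gm12250 had 557 and 590.3 FPKM in spermine 3 h libraries and 692 and 607 FPKM in PBS 3 h libraries (-0.18, adjusted p = 0.186). The response of Gm12250 was larger with spermine (0.92, but 0.47 and not past the threshold under quantile normalization), and that of F830016B08Rik was smaller (-1.46, but -1.24 and not past the threshold with voom).

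Guanylate-binding proteins, larger interferon-inducible GTPases that also coat pathogen vacuoles, were tested for 9 of 11. All 9 rose with IFN-β in PBS, where 24.6% of all tested genes rose, with Gbp2 (8.38), Gbp5 (8.16) and Gbp3 (7.46) in the lead. Of these, Gbp4, Gbp5, Gbp6, Gbp7, Gbp8 and Gbp11 were below 1 FPKM in every 0 h library. They passed the filter through the 3 h libraries alone, which set the direction of this change. All 9 fell with spermine at 3 h, with a median of -1.17 against -0.17 for the 7 members, and 20.6% of all tested genes fell. Gbp11 (-2.14), Gbp4 (-1.44) and Gbp8 (-1.37) fell the most, and Gbp4 had 28.6 and 29.5 FPKM with spermine at 3 h against 89.5 and 72.8 FPKM with PBS at 3 h. At 0 h 3 of the 9 fell with spermine, where 19.2% of all tested genes fell, namely Gbp9 (-0.78), Gbp7 (-0.53) and Gbp3 (-0.42). The call of Gbp3 was lost in 9 of 17 alternatives, and over all 17 its change ranged from -0.78 to -0.29. The 9 were no filter, quantile normalization, a fit of the 2 groups, voom, and leaving out spermine 3 h replicate 1, spermine 3 h replicate 2, spermine 0 h replicate 1, PBS 0 h replicate 1 and PBS 0 h replicate 2, each in turn.

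The proper loading of GKS proteins depends on the Atg8 conjugation proteins, which attach small ubiquitin-like Atg8 proteins to membranes. In a list of 11 such genes and Atg8 genes, spermine raised 6 at 0 h, where 22% of all tested genes rose. At 3 h 7 rose and 1 fell, where 19.9% rose and 20.6% fell. Those that rose at 0 h were Atg3, Atg12 and the Atg8 genes Gabarapl1, Map1lc3b, Gabarap and Gabarapl2. Of the conjugation genes, Atg5 (-0.19), Atg7 (0.03), Atg10 (0.31) and Atg16l1 (-0.20) did not pass at 0 h. The gene that fell at 3 h was Atg16l1 (-0.50, adjusted p = 0.00206). Gabarapl1, an Atg8 protein, rose by 1.22 at 0 h and 1.52 at 3 h, and Map1lc3b (LC3B) by 0.72 and 0.74. Atg3, the enzyme that passes Atg8 proteins to lipid, rose by 0.63 at 0 h. After TPM rescaling the counts that rose were 3 at 0 h and 4 at 3 h, and at 3 h the count was 4 without spermine 3 h replicate 1 and 4 without spermine 3 h replicate 2.

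IRG-coated vacuoles are then marked with ubiquitin and its readers. In a list of 7 such genes, Sqstm1, the ubiquitin reader p62, had 1412 and 1334 FPKM in spermine 3 h libraries, 186 and 207 FPKM in PBS 3 h libraries, 1535 and 1754 FPKM in spermine 0 h libraries and 304 and 338 FPKM in PBS 0 h libraries. It rose with spermine by 2.35 ± 0.10 at 0 h and by 2.80 ± 0.10 at 3 h. Trim21, a ubiquitin ligase with an antibody receptor, fell with spermine by 1.05 at 0 h and by 0.97 at 3 h, and the ligase Rnf213 fell by 1.09 and by 0.77. In all, 4 rose and 2 fell at 0 h, where 22% of all tested genes rose and 19.2% fell. At 3 h 1 rose and 2 fell, near the shares of all tested genes (19.9% and 20.6%). The 4 that rose at 0 h became 2 after TPM rescaling and 2 without PBS 0 h replicate 1, PBS 0 h replicate 2 or spermine 0 h replicate 1.

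Interferon signalling was covered by a list of 14 genes, which holds receptors, kinases and factors and also Socs1 and Usp18, both known to restrain the signal. Spermine at 0 h lowered 10, where 19.2% of all tested genes fell, led by the factors Irf8 (-1.22) and Stat2 (-1.10) and the interferon-γ receptor chain Ifngr1 (-1.09). At 3 h 7 fell and 2 rose, where 20.6% of all tested genes fell and 19.9% rose. Among those that fell were Socs1, a brake on Janus kinases, at -1.42 and the kinase Tyk2 at -0.91. Irf1, a factor that binds ISRE-like elements, went the other way from most of the list at 3 h. It had 262 and 253 FPKM in spermine 3 h libraries, 141 and 151 FPKM in PBS 3 h libraries, 2.34 and 2.65 FPKM in spermine 0 h libraries and 6.33 and 5.84 FPKM in PBS 0 h libraries. Like the 4 members above, Irf1 was lower with spermine at 0 h, and its response was larger with spermine by 1.83 ± 0.11 (adjusted p = 0.00132), while that of Irf8 was larger by 1.27. The response of Socs1 was smaller with spermine (-1.79, adjusted p = 0.0197), a call lost in 6 of 16 alternatives. In this difference 7 of the 14 were higher and 1 was lower, where 5.82% and 7.75% of all tested genes were. The 7 that fell at 3 h became 4 without spermine 3 h replicate 1, and the 2 that rose became 1 without spermine 3 h replicate 2.

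**Figure D4:**
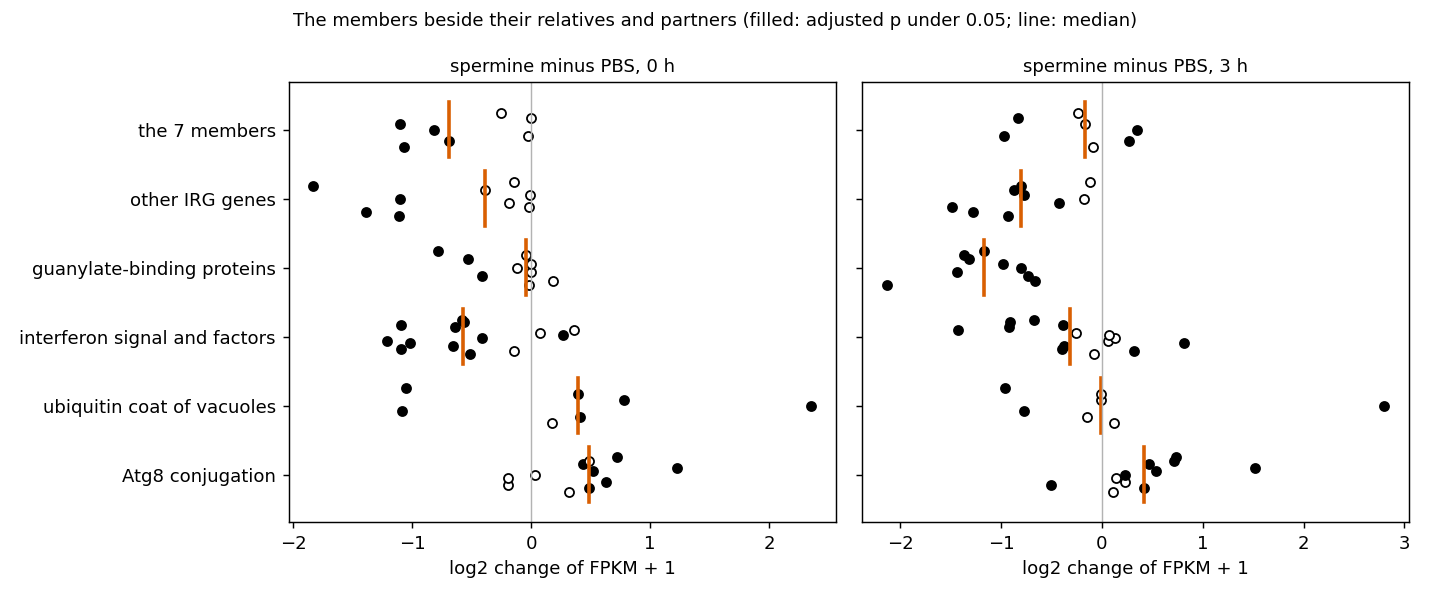
Log2 change of FPKM + 1 with spermine at 0 h (left) and at 3 h of IFN-β (right) for the 7 members and 5 lists of relatives and partners; each point is a gene, filled at an adjusted p under 0.05, and the orange line is the list's median. At 3 h the median of the members is -0.17 and that of the guanylate-binding proteins is -1.17, and the point at 2.80 is Sqstm1.

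Likeness of profile was searched among protein-coding genes only, so genes listed as pseudogenes, such as Gm12250, were not candidates. Most like the members' median over the 8 libraries was Ifi206, a DNA-binding protein of the Ifi200 family. Its root mean square difference was 0.245 on the log2 scale, and that of Usp18, which removes Isg15 from proteins, was 0.270. Next came the chemokine Ccl12 (0.311), the IRG gene Gm4951 (0.393) and the ubiquitin-like Isg15 (0.397). Ifi206 was also the nearest protein-coding gene outside the members to Igtp (0.291), Ifi47 (0.321) and Tgtp2 (0.136). Ccl12 was nearest to Irgm1 (0.314), Ifi203, of the Ifi200 family, to Irgm2 (0.250), Mx1, a GTPase that blocks viruses, to Iigp1 (0.281), and Cd40, a costimulatory receptor, to Tgtp1 (0.127). Mx1 shared the lower level with spermine at 3 h seen in Iigp1, with 631 and 659.8 FPKM in spermine 3 h libraries against 1369 and 1180 FPKM in PBS 3 h libraries. These distances describe 8 libraries in 4 groups, and they are dominated by the step between 0 h and 3 h.

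Within 200 kb of a member's body on the same chromosome lay 55 genes, of which 32 were tested. The 8 other IRG genes among them all rose with IFN-β in PBS. Of the 24 neighbours that are not IRG genes 11 rose and 3 fell, with a median of 0.31, where 24.6% of all tested genes rose and 25% fell. Among those that rose, Olfr56, BC023105, Gm5970, Gm12188, Olfr1396 and 4930438A08Rik were below 1 FPKM in every 0 h library. They passed the filter through the 3 h libraries alone, which set the direction of their change. The count of 11 can therefore not be read against the share of all tested genes. The 5 largest changes in PBS were those of Gm12250 (7.59), Gm4951 (6.69), Olfr56 (5.76), BC023105 (5.68) and Gm5431 (5.01). Olfr56 shares exonic bases with Ifi47, and it had 36.5 and 39.9 FPKM in spermine 3 h libraries, 65.6 and 47.5 FPKM in PBS 3 h libraries, and 4 to 6 reads in each 0 h library.

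**Figure D5:**
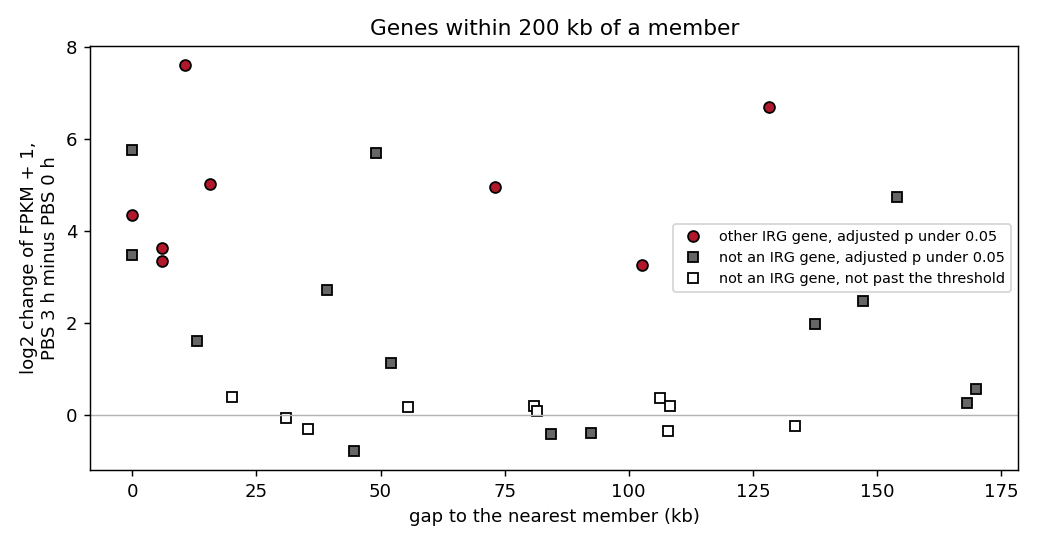
Log2 change with IFN-β in PBS of the 32 tested genes within 200 kb of a member, against the gap in kb to the nearest member (0 for overlapping genes); circles are other IRG genes and squares are not, filled at an adjusted p under 0.05. All 8 circles are above 3, and most squares lie near 0, with Olfr56 (5.76) and BC023105 (5.68) among the exceptions.

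Cell type markers were followed beside the spermine comparisons. Of 8 macrophage markers 3 rose and 2 fell at 0 h, where 22% of all tested genes rose and 19.2% fell. At 3 h 3 rose and 2 fell, where 19.9% of all tested genes rose and 20.6% fell. Those that rose were Adgre1, Cd68 and Cd14 at 0 h and Cd14, Lyz2 and Cd68 at 3 h. Mertk and Fcgr1 fell at both times, Mertk by the most (-1.13 at 0 h and -0.64 at 3 h). Of 5 NK cell markers 1 reached 1 FPKM at 3 h, Klrk1, with 1.11 and 1.30 FPKM in spermine 3 h libraries and 6.92 and 4.73 FPKM in PBS 3 h libraries. The NK list summed to between 1.14 and 1.32 FPKM in spermine 3 h libraries and between 4.73 and 6.95 FPKM in PBS 3 h libraries, and the defining genes Ncr1, Gzma and Prf1 were at 0 in all 8 libraries. Of 5 dendritic cell markers 1 reached 1 FPKM at 3 h, Xcr1, with 6.41 and 5.53 FPKM in spermine 3 h libraries and 4.34 and 2.97 FPKM in PBS 3 h libraries, while Flt3 and Zbtb46 were below 0.05 FPKM in every library. The dendritic list summed to between 5.72 and 6.62 FPKM in spermine 3 h libraries and between 3.28 and 4.65 FPKM in PBS 3 h libraries. At 0 h, beside the falls of 4 members, Xcr1 had 1.11 and 1.05 FPKM in spermine libraries and 0.118 and 0.0891 FPKM in PBS libraries (0.92 ± 0.15, adjusted p = 0.00324), and the dendritic list summed to between 1.24 and 1.25 FPKM with spermine and to 0.411 and 0.414 FPKM with PBS. Of 6 neutrophil markers S100a8 and S100a9 reached 1 FPKM in every group, while the defining gene Ly6g was at 0 in all 8 libraries. The neutrophil list summed to between 5.11 and 7.36 FPKM in spermine 3 h libraries, 6.24 and 8.03 in PBS 3 h libraries, 6.11 and 8.32 in spermine 0 h libraries and 5.05 and 5.06 in PBS 0 h libraries, and S100a9 rose with spermine at 0 h (0.34, adjusted p = 0.0366). Of 6 T cell markers Cd4 alone was above 1 FPKM, and Cd3e, Cd3d and Cd3g were at 0 in all 8 libraries. The part of these markers in the members' changes was not tested.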

How the data were processed

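RNA sequencing of 8 libraries in 4 groups was taken from a table in which the authors deposited FPKM for 54532 genes. Groups and replicate numbers came from the sample titles. The submitters' processing notes name DESeq2 1.20.0, featureCounts 1.5.0-p3, HISAT2 2.0.5, fastp and CASAVA 1.8 and the builds GRCm38 and mm10, without saying what each was used for. Per the labels' protocols, poly(A) RNA was selected and random primed. Whole reads were rebuilt from FPKM and gene length, which within 0.001 of a read succeeded for 100% of values; 25062 genes had a read. On the deposited scale the median gene hardly moves, so changes are relative to it. TPM rescaling put the median change over all genes at -0.41 for IFN-β in PBS, -0.27 for IFN-β with spermine, -0.26 and -0.16 for spermine at 0 h and 3 h and 0.10 for the interaction.

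The 11421 genes that reached 1 FPKM in 2 or more libraries were kept. Log2(FPKM + 1), which understates changes of low genes, was fitted with limma 3.58.1 (R 4.3.3) as 4 group means with an intensity trend (4 residual and 2.83 prior degrees of freedom). Tests are two-sided, with Benjamini-Hochberg adjustment across the kept genes within each of 5 comparisons: 3 h against 0 h with spermine and in PBS, spermine against PBS at either time, and their interaction, called the difference of the responses. Errors are standard errors, with n = 2 libraries per group. The fit was tested on simulated data.

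The members, lists and marker lists were chosen with earlier results of these data known. The text names all members, up to 3 called genes of largest change per list and comparison and up to 5 neighbours within 200 kb. It also names the protein-coding genes nearest in profile. One gene that this rule picked is not reported here. Motifs were searched with Python 3.11.15 in RefSeq promoter sequences, and figures were drawn with matplotlib 3.10.9. Alternatives were another pseudocount, no filter, TPM and quantile scaling, no trend, fits of the 2 groups compared, a replicate block, voom on rebuilt reads, Tgtp1 and Tgtp2 summed, and each library left out.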

Additional observations from a re-analysis of the deposited data

Results flagged for a closer look

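For 6 of the 7 members the IFN-β response with spermine differed from that with PBS by the interaction test of limma over all genes. The difference, spermine minus PBS on the log2 scale of FPKM + 1, was 1.17 for Irgm1, 0.93 for Irgm2, 0.97 for Igtp and 0.98 for Ifi47, where the response was larger with spermine. For Iigp1 it was -0.95 and for Tgtp1 -0.84, where the response was smaller with spermine. Neither of these 2 passed with limma voom on rebuilt reads, and Tgtp1 summed with Tgtp2 had a difference of -0.09 (adjusted p = 0.79). The call of Ifi47 was lost in 8 of 16 alternatives and that of Irgm2 in 3 of 16. Of all tested genes, 13.6% passed the interaction test.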

How the results depend on the processing

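The 7 rises with IFN-β in both treatments and the 4 falls with spermine at 0 h kept their direction and passed in each of 17 alternatives, or 16 for Tgtp1 and Tgtp2, which were summed in the other one. With spermine at 3 h, the count of members that rose (2) was 0 with no filter on low values, after TPM rescaling, under quantile normalization and when just the 2 groups compared were fitted, and 0 to 2 when a library was left out, both calls being lost without PBS 3 h replicate 2, spermine 3 h replicate 1 or spermine 3 h replicate 2. The count that fell (2) was 4 under quantile normalization and 1 with Tgtp1 and Tgtp2 summed, and after TPM rescaling Irgm2 fell as well. In the difference of the responses, the count of members higher with spermine (4) was 2 to 4 when a library was left out. The count lower with spermine (2) was 1 with a pseudocount of 0.1, 1 with Tgtp1 and Tgtp2 summed, 0 with limma voom on rebuilt reads and 1 to 2 when a library was left out. Signs turned for changes near 0 that never passed: Iigp1 with spermine at 0 h under quantile normalization (0.00078), Tgtp1 with spermine at 0 h after TPM rescaling (-0.0018), under quantile normalization (-0.0091) and without a library (-0.011 to 0.013), and the Tgtp2 difference after TPM rescaling (-0.053), under quantile normalization (-0.24) and without a library (-0.15 to 0.20). The cause was not tested. Over all tested genes, the calls for the difference of the responses (1550) were 520 to 1671 when a library was left out, lower by over 1.5 times without PBS 0 h replicate 1 (647) or 2 (520), PBS 3 h replicate 1 (886), spermine 0 h replicate 1 (753) or spermine 3 h replicate 1 (554) or 2 (627). Those for spermine at 0 h (4706) were 2999 to 4897, lowest without PBS 0 h replicate 2, and those for spermine at 3 h (4626) were 2912 to 4645, lowest without spermine 3 h replicate 1. Scaling moved the share of calls that were higher. It was 49.6% with IFN-β in PBS (21.1% with TPM, 36.6% with quantile), 47.2% with IFN-β and spermine (21.5% and 33.6%), 53.3% with spermine at 0 h (20.1% and 45.9%), 49.2% with spermine at 3 h (26.4% and 45.8%) and 42.9% for the difference (64.1% and 49.6%). Same-numbered libraries deviated together in only some pairs of groups (r from -0.126 to 0.371 over 11421 genes), so the numbers were not taken as pairs; with the replicate block the calls over all genes were 5956 for IFN-β in PBS, 5033 for IFN-β with spermine, 4996 and 4978 for spermine at 0 h and 3 h and 1813 for the difference, and no member's call changed. The planned edgeR and DESeq2 tests were not run, because the deposited unit is FPKM. Depth limits the 0 h values of Iigp1, Tgtp1 and Tgtp2, which rest on 0 to 45 reads per library.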
